A study of Mus musculus with 6 samples.

Results

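The expression of 10 genes of the CRH, PACAP and oxytocin stress peptide systems was examined in the prefrontal cortex (PFC) of control mice and mice exposed to early life stress (ELS). The genes were chosen by symbol from a table of 22000 rows as peptides, a binding protein and receptors with roles in stress and social behavior, and all 10 were present in it. RNA-seq was carried out on 3 control and 3 ELS mice, all C57BL/6N males at 9 weeks of age, with 1 library per mouse. ELS mice were housed singly under a filter cap from weaning and control mice were group-housed without one, and both groups had been through behavioral tests and stayed in their housing until dissection, so that early isolation, later isolation and the cap cannot be told apart. The library totals ran from 28405795 to 35241743 counts, and every ELS library was larger than every control library.

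Corticotropin-releasing hormone (CRH) starts the hormonal stress response in the hypothalamus, and in the cortex it is made by interneurons and acts on nearby neurons. Its main receptor, CRHR1, raises cyclic AMP, and CRH-binding protein traps the free peptide. Pituitary adenylate cyclase-activating polypeptide (PACAP, from Adcyap1) also raises cyclic AMP through its receptor PAC1 (Adcyap1r1) and acts upstream of CRH in stress circuits. Oxytocin and vasopressin reach the cortex mainly from hypothalamic neurons, and their receptors OXTR and V1A (Avpr1a) shape social behavior. Neuropeptide Y counters stress through the Y1 receptor (Npy1r). Substance P, a tachykinin like neurokinin B (from Tac2), acts on neurons through receptors such as NK1 (Tacr1).

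Each peptide gene encodes a precursor from which the active peptide is cut at pairs of basic residues. The coding sequences of the active peptides of 2 of the 3 ligand genes are shown because they are what these transcripts deliver. They were taken from GENCODE M21 transcripts on GRCm38. Capitals mark the codons of the released peptide, and lower case marks the basic pair before it and the amidation glycine and basic pair after it. The PACAP stretch of 38 residues lies at chr17:93203990-93204103 (plus strand) in exon 5 of 5, and the neurokinin B stretch of 10 residues at chr10:127729116-127729145 (plus strand), in exon 5 of the 7 exons of the shorter coding transcript.
Adcyap1, PACAP: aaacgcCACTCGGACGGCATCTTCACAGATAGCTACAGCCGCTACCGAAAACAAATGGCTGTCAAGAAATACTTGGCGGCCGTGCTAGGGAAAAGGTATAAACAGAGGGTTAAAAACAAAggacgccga
Tac2, neurokinin B: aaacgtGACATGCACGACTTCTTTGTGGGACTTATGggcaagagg

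None of the 9 genes that could be tested was called different between ELS and control mice. Calls were made where edgeR's quasi-likelihood test gave an adjusted p below 0.05 with a log2 fold change of more than 0.3 in either direction, and 2 of the 13185 genes tested (0.0152%) met both. Of the 10 genes, 9 passed the filter of at least 1 CPM (counts scaled to the library total) in every mouse of a group and were tested. Avpr1a did not pass it. The log2 fold changes (ELS minus control) of the 9 ran from -0.12 for Crhr1 to 0.23 for Tac2, with a median of 0.14, against a median of -0.0046 over all genes tested. Without ELS mouse 1 the median of the 9 was 0.010, without control mouse 1 it was 0.058 and without control mouse 2 it was 0.072. Of the 9, 6 had values above 0, and so did 47.5% of all genes tested. That count was between 5 and 8 over the alternative fits. DESeq2 on the same genes called 18 genes in all and none of the 9. Without correction, a p below 0.05 was reached by 1 of the 9, Adcyap1, against 4.23% of all genes tested, and by 1.89% of them with higher values in ELS mice. CPM values below are scaled by TMM factors, and spreads are SDs over 3 mice. The libraries come from whole tissue, where fewer cells of a type and less RNA per cell cannot be told apart.

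**Figure D1:**
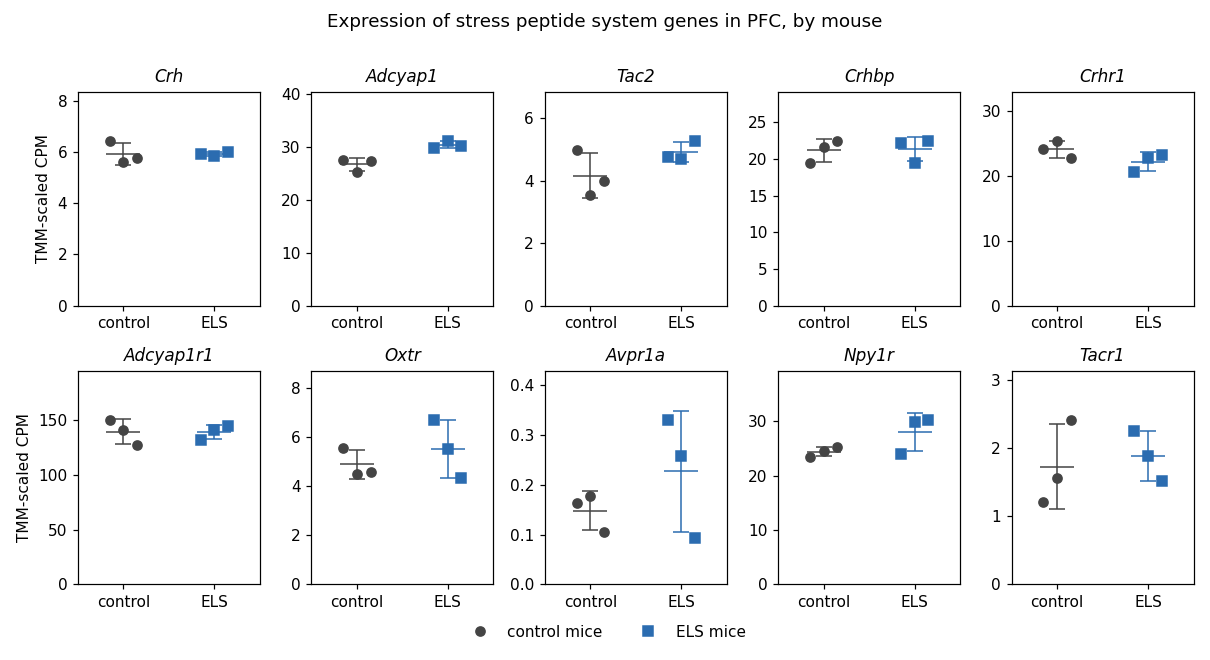
TMM-scaled CPM (y axis, from 0) of the 10 genes in each control mouse (dark circles) and ELS mouse (blue squares), with the mean and SD of each group. Adcyap1 is the gene in which all 3 ELS mice lie above all 3 control mice, at 29.9 to 31.2 against 25.3 to 27.6 CPM.

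Levels were first compared between genes per kilobase of annotated exon, since a longer gene collects more reads. The PAC1 receptor gene Adcyap1r1 had the highest level at 21.1 ± 1.26 CPM per kilobase (SD, n = 6), followed by Crhbp at 11.8 ± 0.799 and Crhr1 at 9.42 ± 0.663. Npy1r (7.58 ± 0.876) and Adcyap1 (7.57 ± 0.586) came next and could not be ordered, as Npy1r was above Adcyap1 in 4 of the 6 mice. The ranges of Crhr1 (8.36 to 10.3) and Npy1r (6.80 to 8.75) overlapped too, although Crhr1 was higher within each of the 6 mice. Crh itself followed at 4.50 ± 0.209 and Tac2 at 3.29 ± 0.471 CPM per kilobase, and their ranges lay apart from each other and from those of their neighbors. The receptors for oxytocin, substance P and vasopressin were the lowest, with Oxtr at 1.08 ± 0.189, Tacr1 at 0.278 ± 0.0715 and Avpr1a at 0.0702 ± 0.0342. Between Adcyap1r1 and Tacr1, the highest and lowest of the tested genes, the level differed 75.9-fold. By CPM without regard to length, Adcyap1r1 was above 86.8% of the genes tested, Adcyap1 above 48.2% and Oxtr above 14.2%. Within these libraries the binding protein and both cyclic AMP-coupled receptors stood above the peptides they bind. Exon lengths were taken from all annotated transcripts of each gene, so the level of a gene that uses a short transcript is understated.

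**Figure D2:**
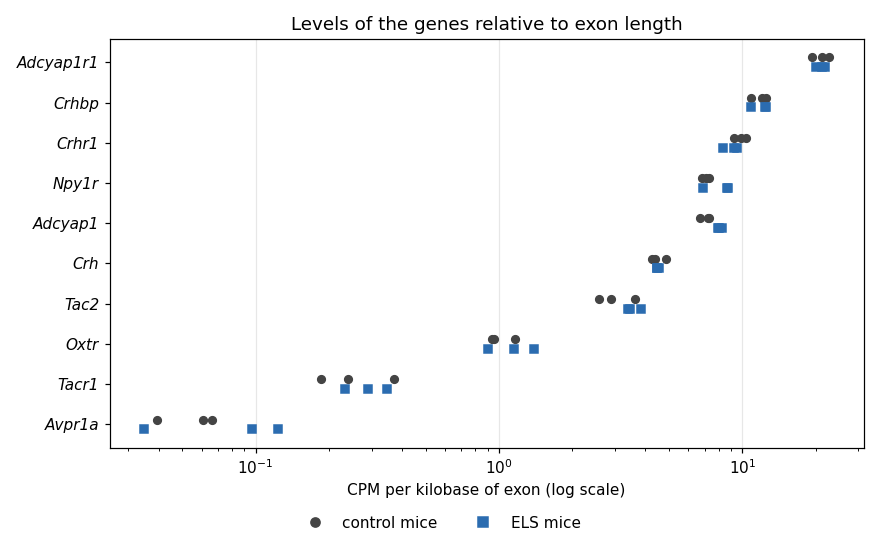
CPM per kilobase of exon (x axis, log scale) for each gene, in control mice (dark circles) and ELS mice (blue squares). The genes span from 21.1 for Adcyap1r1 to 0.0702 for Avpr1a, and the spread between mice is small beside the distance between most genes.

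Among the ligands, Crh is found at bases 19693401 to 19695396 of chromosome 3 in GRCm38, on the minus strand. Control mice 1 to 3 had 6.43, 5.63 and 5.76 CPM, and ELS mice 1 to 3, in the same order as below, had 5.91, 5.86 and 6.02 CPM. All 3 ELS mice fell inside the range of the control mice. Its log2 fold change of -0.0043 had a 95% interval from -0.28 to 0.28, inside the threshold of 0.3. The interval reached past 0.3 with DESeq2 (-0.31 to 0.30) and in each of the 6 fits that left out a mouse. Its sign turned with the scaling of the libraries, to 0.0068 with upper-quartile factors and 0.0066 with library totals only. The control mice varied more than the ELS mice, with a coefficient of variation of 7.23% against 1.33%, a difference that was not tested.

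Adcyap1, on chromosome 17 from 93199017 to 93206537 (plus strand), encodes PACAP. The CPM values were 27.6, 25.3 and 27.3 in controls, against 29.9, 31.2 and 30.2 in ELS mice. It was the 1 tested gene of the 9 whose groups did not overlap, where 8.28% of all genes tested had such groups and 3.81% had them with ELS higher. Every ELS mouse lay above every control mouse. Mean levels were 26.8 ± 1.27 CPM (SD, n = 3) for control mice and 30.4 ± 0.661 CPM (SD, n = 3) for ELS mice. A log2 fold change of 0.19 (standard error 0.0748, 95% interval 0.024 to 0.35) corresponded to a 1.14-fold higher level. It had an unadjusted p of 0.0278 and did not pass the correction, with an adjusted p of 1.0 in edgeR's quasi-likelihood test. The unadjusted p stayed below 0.05 in 2 of the 6 fits that left out a mouse, those without control mouse 1 or 3, and reached 0.0972 in the others. Over the alternative tests, filters and sample sets, the log2 fold change stayed between 0.15 and 0.22, and the adjusted p ran from 0.355 to 1.0. The summed levels of the marker lists overlapped between the groups, except that of 4 markers of claustrum and deep cortical layers. That list was picked here after the data were seen. Its 4 markers summed to 256 to 270 CPM in control mice and 286 to 290 CPM in ELS mice. Among these markers, 3 of the 4 had a fold change above 0 and none was called, and Nr4a2 was the one below 0, with means of 24.3 CPM in controls against 20.5 CPM after ELS. Synpr made up most of the sum, with means of 174 CPM in controls against 192 CPM after ELS, and its own groups overlapped. Gnb4 was the 1 marker of the list whose groups did not overlap, at 38.2 to 43.5 CPM in controls, against 45.9 to 50.7 CPM in ELS mice (log2 fold change 0.23, 95% interval 0.062 to 0.40). Without Synpr, a sum chosen after the data were seen, the summed level of the other 3 markers overlapped between the groups, at 76.4 to 97.4 CPM in controls against 92.8 to 101 CPM in ELS mice. The part of these cells in the Adcyap1 values was not tested.

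The region before the start of Adcyap1 is shown because PACAP signals through cyclic AMP, whose transcriptional effects run through the cyclic AMP response element (CRE). The sequence is RefSeq's on GRCm38.p6, chr17:93198767-93199066 (plus strand), and spans 250 bases before to 50 bases after the first annotated start. The capitals mark a CRE half-site, TGACG, that begins 91 bases before the start.
Adcyap1 promoter: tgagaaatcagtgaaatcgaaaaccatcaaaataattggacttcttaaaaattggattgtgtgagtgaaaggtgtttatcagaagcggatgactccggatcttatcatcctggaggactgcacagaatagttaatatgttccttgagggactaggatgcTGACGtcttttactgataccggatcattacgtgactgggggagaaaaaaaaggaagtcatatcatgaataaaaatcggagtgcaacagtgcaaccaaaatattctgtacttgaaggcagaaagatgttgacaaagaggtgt
Promoter sequences were found for 9 of the 10 genes, and Crh was the one without an entry. The half-site, searched as TGACG or CGTCA to cover both strands, was present for 4 of them, Adcyap1, Crhbp, Avpr1a and Tacr1, and in 20.8% of all promoters in the table. The full palindrome TGACGTCA was found in none of the 9 genes and in 1.79% of all promoters. These are matches of letters and not measured binding sites.

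Tac2, on chromosome 10 from 127724478 to 127731768 (plus strand), had 4.97, 3.54 and 3.98 CPM in controls, against 4.77, 4.69 and 5.27 CPM in ELS mice. The groups overlapped through control mouse 1, which was higher than ELS mice 1 and 2. At 0.23 (95% interval -0.12 to 0.59), its log2 fold change was the largest of the 9 tested genes in this fit, with an adjusted p of 1.0 in the quasi-likelihood test. It was 0.38 without control mouse 1 and 0.13 without control mouse 2, and another of the 9 genes had the largest value in 4 of the 6 fits that left out a mouse. In the cortex Tac2 marks a subset of VIP interneurons. Of 4 tested markers of these cells, Vip, Calb2, Htr3a and Prox1, all had fold changes above 0 and none was called. Over all genes tested, 47.5% had values above 0. The log2 fold change of Vip itself was 0.0063 (95% interval -0.19 to 0.20). The fifth marker, Chat, was below the filter, with means of 0.561 CPM in controls against 0.348 CPM after ELS. The summed level of all 5 ran from 90.5 to 111 CPM in control mice and from 96.6 to 111 CPM in ELS mice.

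Crhbp, on chromosome 13 from 95431371 to 95444924 (minus strand), encodes the protein that holds CRH away from its receptors and is made in the cortex largely by somatostatin interneurons. It had 19.5, 21.6 and 22.4 CPM in controls, against 22.2, 19.4 and 22.5 CPM in ELS mice. Control mouse 1 and ELS mouse 2 were the lowest, and the groups overlapped over nearly their whole range. The fold change was 0.015 on the log2 scale, and its 95% interval of -0.18 to 0.21 lay inside the threshold of 0.3. The balance of peptide and binding protein was taken as log2 of Crh over Crhbp within each mouse. It was -1.75 ± 0.194 in controls, against -1.76 ± 0.0999 in ELS mice (SD, n = 3 each; exact permutation test, two-sided, p = 1.0). For PACAP and its receptor, log2 of Adcyap1 over Adcyap1r1 was -2.36 ± 0.137 in controls, against -2.17 ± 0.0614 in ELS mice (SD, n = 3 each; exact permutation test, p = 0.2). With adjustment over these 2 ratios the p-values were 1.0 and 0.4, and 3 against 3 mice cannot give a p below 0.1. Control mouse 3, with a ratio of -2.20, overlapped the ELS mice, which ran from -2.24 to -2.12.

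Among the receptors, Crhr1 is the receptor through which CRH acts on cortical neurons and lies on chromosome 11 from 104132855 to 104175523 (plus strand). It had 24.2, 25.4 and 22.8 CPM in controls, against 20.6, 22.8 and 23.3 CPM in ELS mice. All 3 ELS mice were below the median of the control mice, but 2 of them were above control mouse 3. Its log2 fold change of -0.12 (95% interval -0.30 to 0.063) was the lowest of the 9 genes and had an adjusted p of 1.0 in the quasi-likelihood test. It ranged from -0.16 to -0.070 when each mouse was left out.

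Adcyap1r1, on chromosome 6 from 55451978 to 55501451 (plus strand), had 150, 141 and 128 CPM in controls, against 132, 141 and 145 CPM in ELS mice. The control mice reached both higher and lower than the ELS mice. It was the most deeply counted of the 10 genes, with at least 3654 counts per mouse. The log2 fold change was -0.0035 (95% interval -0.17 to 0.16). That sign, like that of Crh, turned with upper-quartile factors (0.0074) and with library totals only (0.0070).

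Npy1r, on chromosome 8 from 66697192 to 66706792 (plus strand), encodes the Y1 receptor, which inhibits adenylate cyclase. It had 23.5, 24.5 and 25.3 CPM in controls, against 23.9, 29.8 and 30.2 CPM in ELS mice. ELS mice 2 and 3 were above every control mouse, and ELS mouse 1 lay among the controls. Between groups the log2 fold change was 0.20 (95% interval -0.012 to 0.41), with an unadjusted p of 0.0622 and an adjusted p of 1.0 in edgeR's quasi-likelihood test. Leaving out ELS mouse 1 gave 0.30 and leaving out ELS mouse 3 gave 0.14, and the gene was called in neither fit. The unadjusted p was below 0.05 in 7 of the 19 alternative fits and lowest among the single-mouse omissions without ELS mouse 1, at 0.00616.

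Oxtr, on chromosome 6 from 112473683 to 112489943 (minus strand), encodes the oxytocin receptor, which in the PFC is found in somatostatin interneurons among other cells. It was counted 127 to 223 times per mouse, giving 5.56, 4.50 and 4.58 CPM in controls, against 6.69, 5.52 and 4.31 CPM in ELS mice. The highest and the lowest of the 6 values were both in ELS mice. The log2 fold change of 0.17 (95% interval -0.21 to 0.56) rested on ELS mouse 1. It was 0.010 without this mouse and 0.32 without ELS mouse 3.

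Tacr1, on chromosome 6 from 82402334 to 82560104 (plus strand), encodes the NK1 receptor, which in the cortex marks interneurons that also make nitric oxide synthase. It had 1.20, 1.56 and 2.41 CPM in controls, against 2.25, 1.89 and 1.52 CPM in ELS mice. The spread between control mice, a coefficient of variation of 36.0%, was the largest of the 9 tested genes of the set. Its log2 fold change of 0.14 had a 95% interval from -0.45 to 0.73, so that neither a rise nor a fall beyond the threshold was outside it. Without control mouse 1 the value was -0.073 and without control mouse 3 it was 0.45. Control mouse 3 and ELS mouse 1, the highest in Tacr1, were also the highest in the summed level of 8 markers of striatal projection neurons, at 547 and 537 CPM against 306 to 392 CPM in the other 4 mice. With the mean level of these markers as a covariate the Tacr1 value was 0.012, and without both mice it was 0.31, neither of them called. Crhr1 and Adcyap1r1 had their lowest values in the same mice. Their log2 fold changes were -0.086 and 0.038 with the covariate, and -0.11 and -0.024 without both mice. Both fits were chosen after the data were seen.

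**Figure D3:**
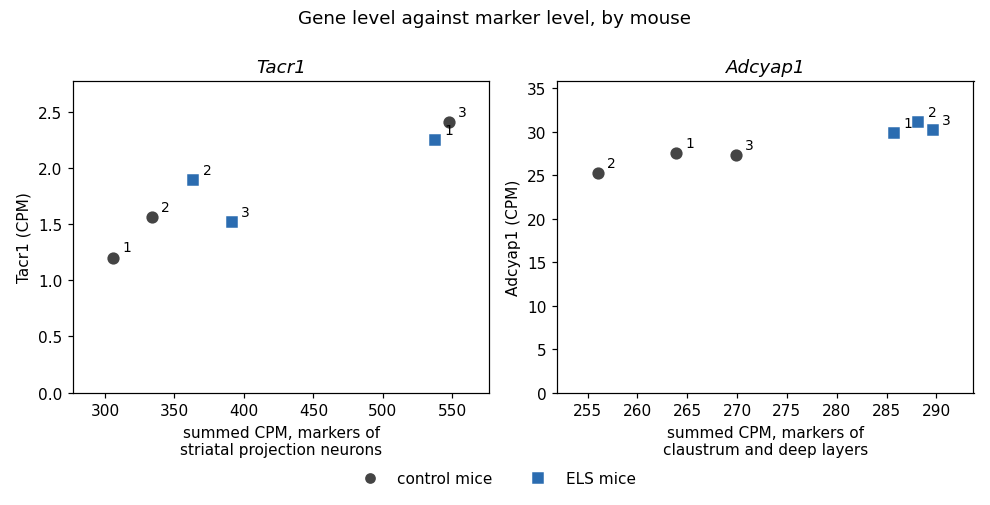
CPM of Tacr1 (left) against the summed CPM of 8 striatal markers, and of Adcyap1 (right) against that of 4 claustrum and deep-layer markers, with 1 numbered point per mouse (dark circles, control; blue squares, ELS). Control mouse 3 and ELS mouse 1 are highest on both axes at left, and the groups lie apart on both axes at right. The list at right was picked after the data were seen, and the sums of the other marker lists overlapped between the groups.

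Avpr1a, on chromosome 10 from 122448499 to 122453452 (plus strand), encodes the V1A vasopressin receptor. It had 5, 5 and 3 counts in control mice and 11, 9 and 3 counts in ELS mice. These correspond to 0.162, 0.177 and 0.105 CPM in controls, against 0.330, 0.257 and 0.0930 CPM in ELS mice. The exact 95% Poisson interval ran from 0.165 to 0.590 CPM in ELS mouse 1 and from 0.0575 to 0.413 CPM in control mouse 2, so the highest mice of the groups could not be told apart by counting error alone. Fitted with no filter beyond 1 read, the log2 fold change was 0.61 with a standard error of 0.706. Its 95% interval ran from -0.87 to 2.1, so that neither a rise nor a fall was outside it.

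**Figure D4:**
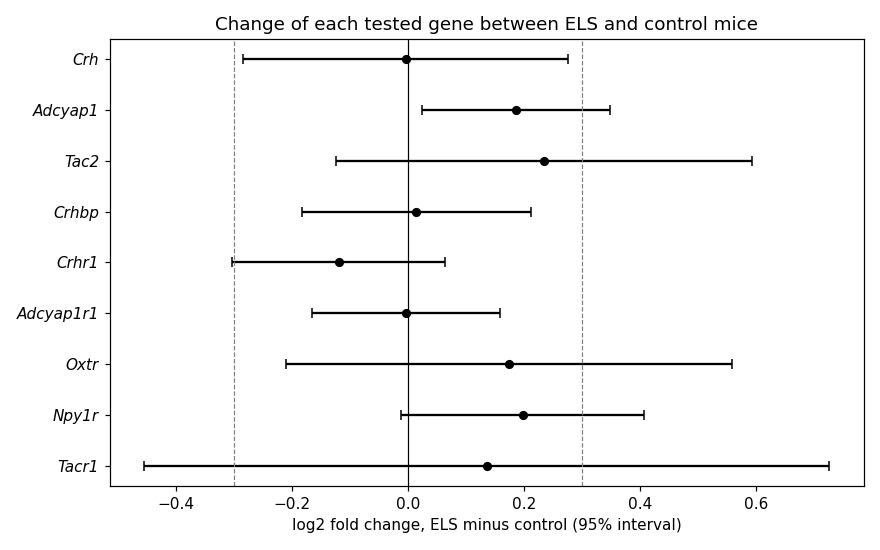
Log2 fold change, ELS minus control (x axis), with its 95% interval for the 9 tested genes, with dashed lines at the threshold of 0.3 in each direction. The intervals of Crh, Crhbp and Adcyap1r1 lie inside the dashed lines, that of Adcyap1 (0.024 to 0.35) is the one that excludes 0, and that of Tacr1 is the widest.

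The exons of the 10 genes overlap no exon of another annotated gene, so reads of an overlapping neighbor did not enter these counts under that annotation. The biological coefficient of variation, edgeR's estimate of the spread between mice beyond counting, ran from 6.23% for Adcyap1 to 17.9% for Tacr1 with a median of 8.09% over the 9 genes, against 7.57% over all genes tested. In 3 of the 9 genes, Crh, Crhbp and Adcyap1r1, the interval lay inside 0.3 in either direction, and in the other 6 it did not. For Crhbp and Adcyap1r1 this held in all 19 alternative fits, and for Crh in 9 of them.

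The other genes of these peptide systems were looked at as 51 further genes, of which 38 were tested and none was called. Of the 38, 19 had fold changes above 0 and 19 below, with a median of 0.0026. Among other ligands, Npy had 79.2 ± 3.50 CPM (SD, n = 3) in controls, against 77.8 ± 4.61 CPM in ELS mice, and Vip had 74.8 ± 8.23 against 75.2 ± 6.09 CPM. Tac1, the substance P gene, which the striatum also expresses strongly, spread from 17.0 to 35.6 CPM between control mice. The genes of oxytocin and vasopressin were nearly silent. Oxt had 0 to 4 counts per mouse and Avp 0 to 12. In the mice with a count of 0, an upper limit set at 3 counts was at most 0.105 CPM. This limit covers counting error only. Crhr2, the second CRH receptor, had 9, 5 and 14 counts in controls, against 31, 18 and 15 counts in ELS mice. Scaled to CPM its groups overlapped, at 0.177 to 0.489 in controls against 0.465 to 0.930 in ELS mice. The urocortin gene Ucn had 3 to 10 counts per mouse, and neither gene passed the filter.

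Among other receptors, 4 of 10 were tested. Npy2r, the presynaptic Y2 receptor, had 2.31, 2.80 and 3.53 CPM in controls, against 4.29, 4.46 and 3.13 CPM in ELS mice. ELS mouse 3 lay inside the control range, and the other 2 ELS mice above it. Its log2 fold change was 0.47 (95% interval 0.016 to 0.91), with an unadjusted p of 0.0433 and an adjusted p of 1.0 in edgeR's quasi-likelihood test. Over the 6 fits that left out a mouse its log2 fold change ran from 0.33 to 0.64, and the unadjusted p was below 0.05 in 2 of them. Vipr1 and Npy5r had log2 fold changes of -0.14 and 0.19, with intervals that included 0. Of the 7 genes for peptide processing and clearance, Cpe, the carboxypeptidase that trims peptide precursors, had the highest level at 867 CPM per kilobase in both groups, and the 95% interval of its log2 fold change ran from -0.13 to 0.12. Pcsk2, a convertase that cuts precursors, and Pam, which amidates peptides, had log2 fold changes of 0.0054 and 0.082.

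The 24 genes of G proteins and second messengers were all tested, with fold changes from -0.26 to 0.077 and intervals that all lay within 0.5 of 0. Rgs4, Prkar1a and Gnas had the highest levels per kilobase and log2 fold changes of -0.020, 0.033 and -0.019. Before correction 2 of the 24 had a p below 0.05, against 4.23% of all genes tested. Both had lower values in ELS mice, as did 2.34% of all genes tested at this p, and neither passed the correction. Adcy9, an adenylate cyclase, averaged 54.6 ± 2.64 CPM in controls, against 46.3 ± 6.76 CPM after ELS (SD over 3 mice), which is -0.24 on the log2 scale. That value was -0.15 without ELS mouse 1 and -0.36 without ELS mouse 2. Ramp2, a partner protein of peptide receptors, averaged 14.1 ± 1.13 CPM in controls, against 11.8 ± 0.460 CPM after ELS, which is -0.26. Of the Ramp2 exon length, 33.4% is shared with Vps25 on the same strand, so its count is uncertain. Over all 38 genes, Ramp2 and Adcy5 were the 2 whose groups stayed apart, beside the share of 8.28% over the whole table.

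**Figure D5:**
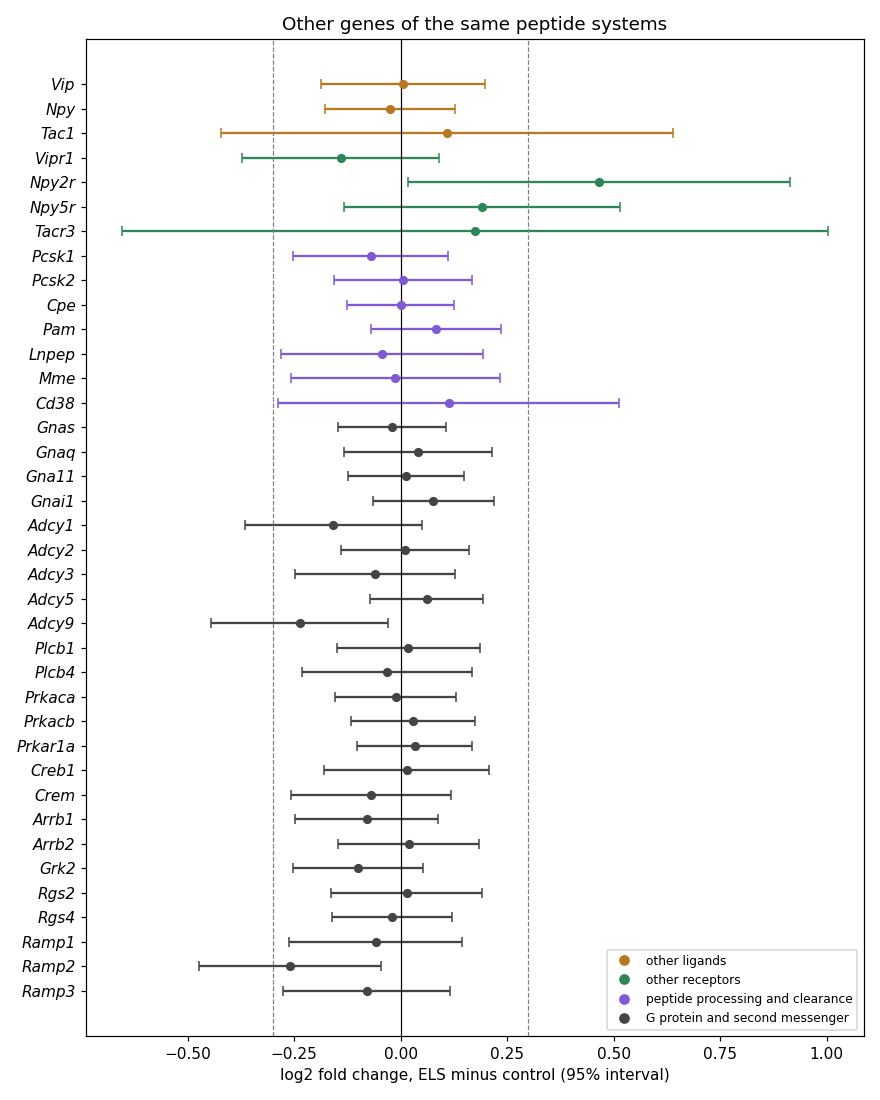
Log2 fold change, ELS minus control (x axis), with its 95% interval for the 38 other genes tested, colored by role, with dashed lines at the threshold of 0.3. The point estimates run from -0.26 for Ramp2 to 0.47 for Npy2r, and the intervals of Tacr3 and Tac1 are the widest.

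The genes whose levels followed most nearly the same course over the 6 mice were found by the root mean square difference between mean-centered log2 profiles. For Crh they were Armcx2, Tns1 and Scaf11 (0.015, 0.015 and 0.018 on the log2 scale) among 13016 candidates. For Adcyap1 they were Cdh7, Wls and Rcbtb2 (0.030, 0.030 and 0.032) among 11740 candidates. With 6 mice and this many candidates, such likeness is a description of these libraries.

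The tissue was checked by lists of marker genes. Excitatory neuron markers summed to between 5251 and 6193 CPM in all mice, and GABAergic markers to between 498 and 522 CPM. The excitatory sum was lowest in ELS mouse 1 (5251 CPM) and control mouse 3 (5553 CPM). These mice had the highest striatal sums, at 537 and 547 CPM, against 306 to 392 CPM in the others. Oligodendrocyte markers summed to between 5499 and 7379 CPM, highest in control mouse 3. Of 5 hypothalamic and septal markers, 3 were under 1 CPM in every mouse and the list summed to at most 4.03 CPM.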

How the data were processed

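PFC libraries of 6 mice, 3 per group, were sequenced. The authors aligned reads to mm10 with STAR, for which the submitters' processing notes give version 2.7.1a and the methods an earlier one, and counted uniquely mapped reads with HTSeq 0.9.1. They deposited raw counts per gene symbol, with neither normalization nor pooling. The annotation release and strand setting are not given in the sources used here. Of the symbols, 27 had become dates, and 89.2% matched GENCODE M21. Columns of ELS mice carry an abbreviation of social isolation, by which they were assigned together with their number.

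The software was edgeR 4.0.16 under R 4.3.3, and for alternatives DESeq2 1.42.0 and limma 3.58.1. The filter kept genes that reached 1 CPM in every mouse of either group. Libraries were scaled by TMM and compared with edgeR's quasi-likelihood test with condition as the only term. Benjamini-Hochberg adjustment was over all genes tested. The standard error of a fold change was its size divided by the square root of F. Ratios and likeness used log2(CPM + 0.5). Fits were tested on simulated data. Mice of a group are separate animals, and no 2 libraries agreed within sampling noise (chi-square per degree of freedom of at least 6.61). By the paper, mice of both groups came from litters of the same mother, and control mice shared cages. The litter and cage of each sequenced mouse are not given in the sources used here.

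The 10 genes, the further lists and the tests were chosen with earlier results of these data known. Named were the 10 genes, further genes with an unadjusted p under 0.05 or among the 3 highest per kilobase in their role, and the 3 nearest profiles to Crh and to Adcyap1. The nearest profiles to Oxtr are not reported here. Crhr2, Ucn, Oxt, Avp, Adcy5, Tacr3, the markers and Vps25 were named after their values were seen. Grk2 was matched by its older symbol, and Dlx6os1 and Drd1 of the marker lists were not matched. Alternatives were other tests, normalizations, filters and thresholds, a block for replicate number, and fits without each mouse in turn.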

Additional observations from a re-analysis of the deposited data

How the results depend on the processing

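No alternative called any of those of the 10 genes and of the 51 further genes that it tested. Avpr1a was tested with no filter beyond 1 read only. The number of genes called over the whole table was 2, and became 18 with DESeq2, 28 with the edgeR likelihood ratio test, 4 with no filter beyond 1 read, and 1 to 29 with each mouse left out, the 29 without control mouse 3. Chosen after the data were seen, the striatal marker covariate gave 36 and leaving out control mouse 3 and ELS mouse 1 together gave 27. The cause was not tested. The median log2 fold change of the 9 tested genes, 0.14, ran from 0.010 to 0.14 with each mouse left out, lowest without ELS mouse 1, and was 0.038 with the striatal covariate and 0.032 without both mice. Some values turned sign, and these were not only the values nearest 0. Crh was 0.0068 with upper-quartile factors, 0.0066 with library totals and 0.0083 with the striatal covariate, and -0.041 to 0.058 with a mouse left out. Adcyap1r1 was 0.0074, 0.0070 and 0.038 in the same fits and -0.065 to 0.053 with a mouse left out. Crhbp was -0.020 with the covariate and -0.043 to 0.076 with a mouse left out, Tacr1 ran from -0.073 to 0.45, and Oxtr was -0.030 without both mice and 0.32 without ELS mouse 3. Log2 of Crh over Crhbp differed by -0.015 between groups, and by -0.076 to 0.097 with a mouse left out.

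Adding a replicate block for mouse number gave 7 calls over the whole table and none among the 9 genes tested. The correlations of the deviations of same-numbered mice were -0.145, 0.238 and -0.034, so the numbers were not taken to pair the mice. The number of the 9 genes with an unadjusted p under 0.05, which was 1, was between 0 and 2 over all alternatives, with 0 without control mouse 2, ELS mouse 2 or ELS mouse 3, and 2 with the block, upper-quartile factors, library totals or the striatal covariate, and without control mouse 1, control mouse 3 or both mice named above. Avpr1a was counted at most 11 times per mouse, and its difference was not detectable at this depth.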
